A study of Sparassis latifolia with 18 samples.

Results

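Sparassis latifolia is an edible brown-rot mushroom of conifers. The comparison described here set mycelium kept with pine sawdust for 10 days (10d) against mycelium that received none before harvest (CK). Its members were the columns T-10d-1, T-10d-2 and T-10d-3 and the columns CK-1, CK-2 and CK-3 of the FPKM table, 6 of the 18 libraries of the series, with all 1100 genes of that table. Both groups were mycelium of strain SP-C, grown first as a seed culture in shaken liquid medium in darkness and then moved to new flasks of liquid medium. The methods do not state shaking or light for these later flasks. According to the study's methods, sterilized fresh pine sawdust was put into the flasks at staggered times and all cultures were collected together, so that the groups differ in the time of pine sawdust inducing (PSI) and share the harvest. The other 12 libraries had 1h, 6h, 1d or 5d of PSI, with 3 libraries in each group. The study calls its libraries biological replicates, while the labels do not say whether they came from separate flasks, so the p values measure the spread between these libraries.

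Brown-rot fungi open wood with small oxidants made outside the hypha and with enzymes that cut the carbohydrate polymers, and they leave most of the lignin behind. Oxidases of the GMC family (glucose-methanol-choline oxidoreductases) can provide hydrogen peroxide for this chemistry, and oxalate sets the pH and binds iron around the hypha. Fresh pine also brings resin, made of terpenes, resin acids and fatty acids, which a fungus has to export, modify or consume. Genes for oxidoreductases, monooxygenases, lipases, fatty acid breakdown, transporters and wall-acting proteins are therefore described by role below.

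Values are FPKM, fragments per kilobase of transcript, scaled to the mapped fragments of each library. A gene was tested if its FPKM reached 1 in at least 2 of the 18 libraries, which 1093 of the 1100 genes did. Tests were made on log2(FPKM + 1) with limma, and fold changes on that scale understate the change of low genes. A gene was called a differentially expressed gene (DEG) at an adjusted p under 0.01 with a fold change over 2, which are the thresholds of the study. Only part of the genes of the fungus are in the table, 985 with EVM identifiers and 115 new ones, and the rule by which they were taken is not stated, so counts cover these genes alone.

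CK-1 stood apart, and the study left it out. CK-2 and CK-3 differed by over 2-fold in 2 genes of the table and the 10d libraries in 5 or 6 genes per pair. CK-1 differed from CK-2 in 149 genes, 33 higher and 116 lower in CK-1, and from CK-3 in 150. Across genes, which are not independent replicates, Pearson's r was 0.995 between CK-2 and CK-3, 0.955 to 0.956 between CK-1 and each of them, and 0.996 within 10d. CK-1 was nearer to the 10d libraries, with an r of 0.908 to 0.913, than CK-2 and CK-3 were, with 0.862 to 0.867. Each result is therefore given with all 3 CK libraries and with CK-2 and CK-3 alone. As CK-1 was left out after its values were seen, the SEs and p values without it rest on CK libraries that were alike and may be too small.

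At 10d, 475 of the 1093 tested genes were DEGs, a share of 43.5%, of which 152 (13.9%) were higher and 323 (29.6%) were lower than in CK. Without CK-1 there were 582 DEGs (53.2%), 200 higher (18.3%) and 382 lower (34.9%). The fits shared 145 higher and 311 lower DEGs. Only the fit with CK-1 called 7 higher and 12 lower genes, and only the fit without it called 55 and 71. Among the shared DEGs, 26 were over 4-fold higher and 40 over 4-fold lower in both fits, and 7 and 4 were past 8-fold. The higher DEGs of the fit with all CK libraries had a median FPKM of 46.2 in CK and 133 at 10d, while the lower ones were less abundant, with 16.8 in CK and 5.64 at 10d. In 948 genes (86.7%) the 3 libraries of 10d did not overlap with the 3 of CK, 401 of them above (36.7%) and 547 below (50%).

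The direction of these totals depended on the scaling. The median log2 fold change over all tested genes was -0.39 with all CK libraries and -0.45 without CK-1, so that a gene at 0 on this scale lay above the typical gene. The FPKM of the listed genes summed to 104867 to 112124 in CK and to 145948 to 148824 at 10d. EVM0003720 and EVM0000539 together made up 41.6% of that rise. Quantile normalization, which gives all libraries one distribution, called 335 genes (30.6%), 179 higher (16.4%) and 156 lower (14.3%). It lowered the share of lower genes among the DEGs from 68.0% to 46.6%, and without CK-1 from 65.6% to 47.2%. With equal library medians, 237 genes (21.7%) were higher and 256 (23.4%) lower, and 51.9% of the DEGs were lower. The genes called in both fits and also after quantile normalization numbered 107 higher and 143 lower.

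**Figure D1:**
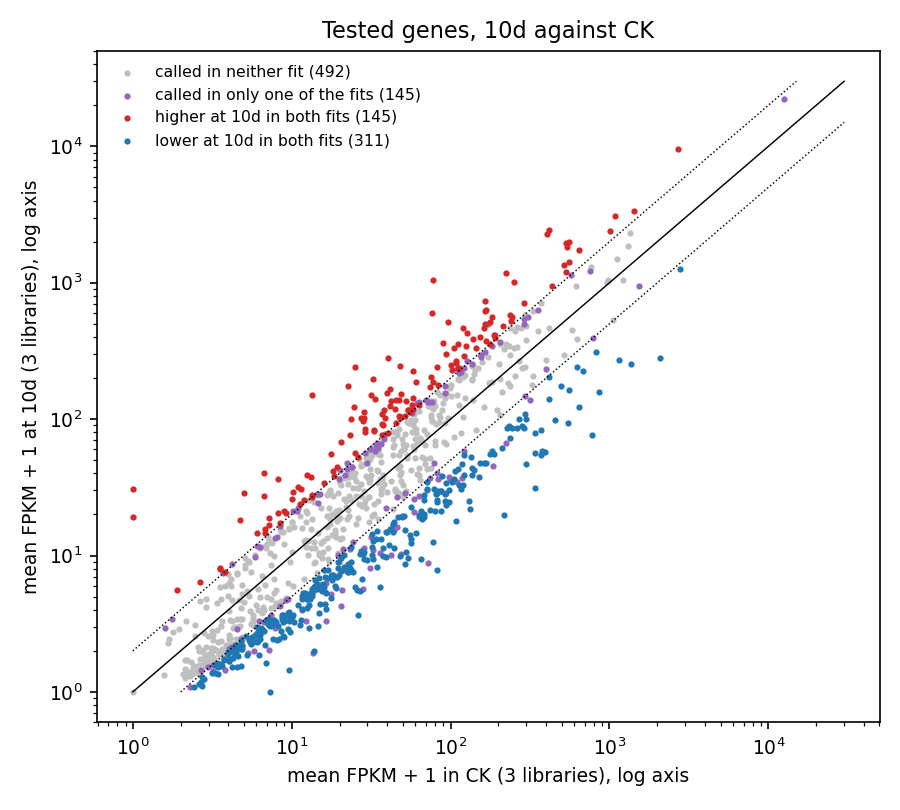
Mean FPKM + 1 of each tested gene in the 3 CK libraries (x axis, log scale) and in the 3 10d libraries (y axis, log scale). The solid line marks equal values and the dotted lines a 2-fold change. The 145 genes higher (red) and 311 lower (blue) in both fits lie past or close to the dotted lines, since calls used means of log2 values and the axes show means of FPKM, and those called in only 1 fit (purple) lie mostly along them.

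Comparing single libraries shows how far CK-1 narrowed the difference. A 10d library differed from CK-1 by over 2-fold in 393 to 401 genes, from CK-2 in 577 to 589 and from CK-3 in 579 to 587. For 434 of the 582 DEGs found without CK-1, CK-1 lay on the 10d side of both other CK libraries, against 675 of all 1093 tested genes (61.8%). In these 582 DEGs, CK-1 had a median position 31.3% of the way from the CK-2 and CK-3 mean to the 10d mean, with quartiles of 4.42% and 53.7%. It was past 50% of the way in 165 genes, and in 104 it lay beyond both other CK libraries on the side away from 10d. As CK-2 and CK-3 chose these DEGs, the positions are a description. A set of 139 genes, 45 higher and 94 lower, was called in both fits with CK-1 within 1.2-fold of the CK-2 and CK-3 mean. What set CK-1 apart was not tested.

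**Figure D2:**
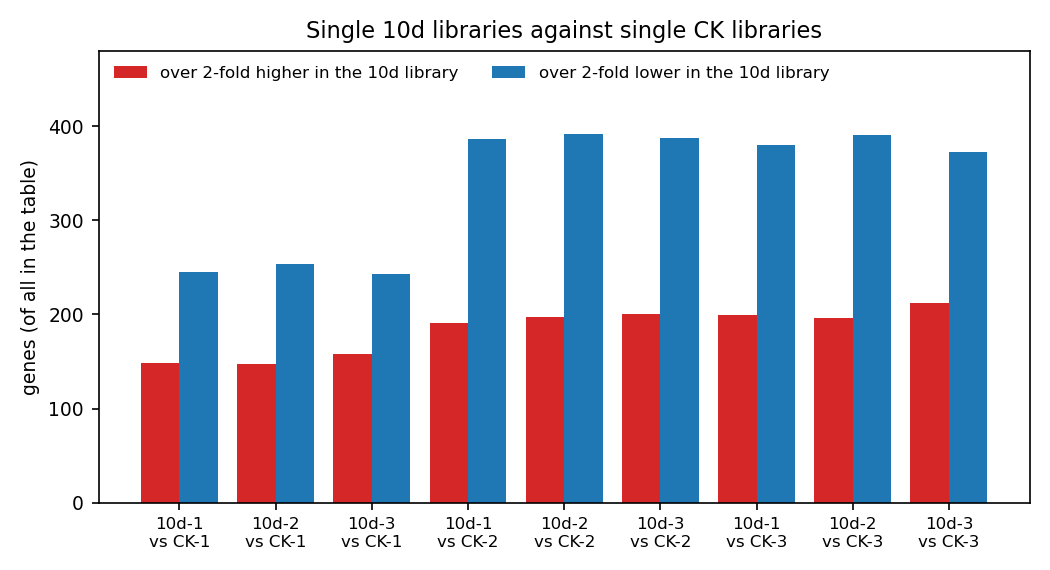
Genes of the table over 2-fold higher (red) or lower (blue) in each 10d library than in each CK library, as counts on the y axis. The 3 pairs with CK-1 have 393 to 401 such genes in all, and the 6 pairs with CK-2 or CK-3 have 577 to 589.

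The files name no gene, and roles were taken from the annotation in the study's tables, which gave 68 genes, of which 52 were in the FPKM table. The study had called these genes at 10d in the same libraries, so their counts are not independent evidence of a direction, and the shares of all genes stand beside them only as background. This holds for each count by role below. Of all tested genes 13.9% were higher and 29.6% lower with all CK libraries, and 18.3% and 34.9% without CK-1. Of the 52, 37 were higher and 5 lower with all CK libraries, a share called of 80.8%, and 36 and 7 without CK-1. Of the 1041 other tested genes, 115 were higher and 318 lower, and without CK-1 164 and 375. In all 52 annotated genes the 10d libraries did not overlap with the CK libraries, 45 above and 7 below, as in 86.7% of all tested genes (36.7% above and 50% below), and none changed its sign under any alternative tried.

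**Figure D3:**
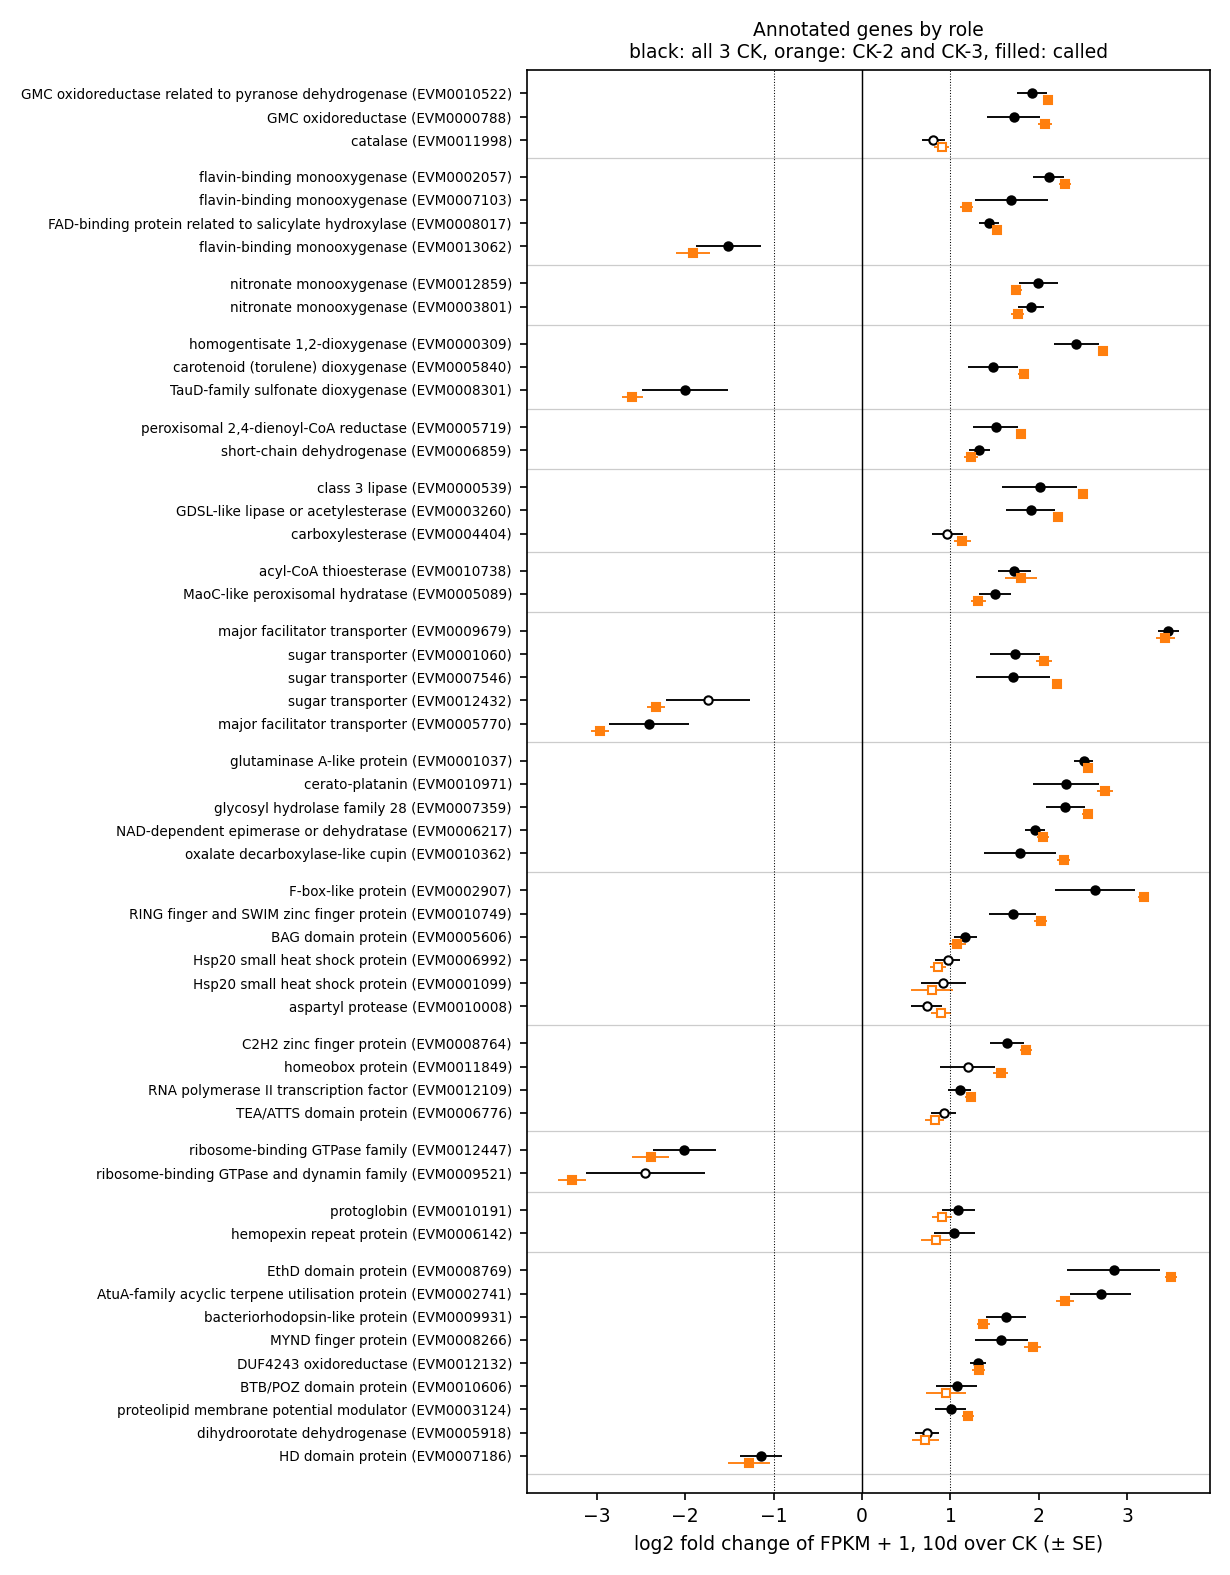
Log2 fold change of FPKM + 1 at 10d over CK (x axis) with its SE for the 52 annotated genes, grouped by role and separated by grey lines. Black circles use all 3 CK libraries, orange squares CK-2 and CK-3, and filled symbols are DEGs. In the fit without CK-1 the SEs of most genes are shorter, and the call changes for 7 genes.

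Both GMC oxidoreductase genes rose, and the catalase gene, whose product splits hydrogen peroxide, did not reach the 2-fold threshold without further scaling. EVM0010522 encodes a GMC oxidoreductase related to pyranose dehydrogenase, an enzyme that oxidizes sugars of plant cell walls. The annotation names a dehydrogenase and not an oxidase, and whether the product forms hydrogen peroxide was not tested. The FPKM of EVM0010522 was 210, 143 and 148 in CK-1, CK-2 and CK-3, and 623, 651 and 602 in the 10d libraries. Every 10d library was thus far above every CK library, with a log2 fold change of 1.92 (SE 0.17, adjusted p = 0.000193 by limma) and of 2.10 without CK-1 (SE 0.05, adjusted p = 7.75e-08 by limma). The other GMC oxidoreductase gene, EVM0000788, rose by 1.71 on the log2 scale, and by 2.07 without CK-1. The catalase gene EVM0011998 was at 18.9, 14.6 and 15.8 in CK and at 28.8, 31.2 and 28.1 at 10d. The change was 0.80 (SE 0.13, adjusted p = 0.00166 by limma), and 0.90 without CK-1. Quantile normalization put it past 2-fold, at 1.10 (adjusted p = 0.00502 by limma), so the catalase gene was then a DEG like the GMC oxidoreductase genes.

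Flavin and FAD-dependent monooxygenases, which put an oxygen atom into organic compounds, moved in both directions, with 3 of 4 genes higher and 1 lower in both fits. EVM0002057, a flavin-binding monooxygenase gene, had 41.4, 29.2 and 26.4 FPKM in CK and 138, 139 and 144 at 10d. The rise came to 2.11 on the log2 scale (SE 0.17, adjusted p = 0.000149 by limma), and to 2.30 without CK-1. EVM0013062, of the same family, fell from 7.61, 18.2 and 19.8 FPKM in CK to 5.84, 3.48 and 3.85 at 10d. Here CK-1 was close to the 10d libraries, and the log2 fold change was -1.51 with it and -1.91 without it. In EVM0007103 CK-1 lay the other way, at 77.7 against 223 and 227, and its rise was 1.69 with CK-1 and 1.18 without. EVM0008017, annotated as related to salicylate hydroxylase, an enzyme of aromatic ring breakdown, rose by 1.43 and by 1.53.

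Both nitronate monooxygenase genes rose. These enzymes oxidize alkyl nitronates, such as those formed from toxic nitro compounds of plants. EVM0012859 went from 80.7, 140 and 135 FPKM in CK to 430, 489 and 467 at 10d, a log2 fold change of 1.99 (SE 0.22, adjusted p = 0.000442 by limma). EVM0003801 went from 21.1, 29.9 and 28.2 to 98.5, 108 and 96.0, a log2 fold change of 1.91. CK-1 was the lowest CK library in both, and without it the values were 1.74 and 1.76.

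Of 3 dioxygenase genes, 2 rose and 1 fell in both fits. EVM0000309 encodes homogentisate 1,2-dioxygenase, which opens the aromatic ring in the breakdown of tyrosine and phenylalanine. Its FPKM was 68.5, 36.6 and 35.6 in CK and 242, 248 and 242 at 10d, so the 10d libraries lay within a few percent of each other. The rise came to 2.42 on the log2 scale (SE 0.25, adjusted p = 0.000367 by limma), and 2.72 without CK-1. EVM0005840, for a dioxygenase of the kind that cleaves the carotenoid torulene in other fungi, rose by 1.48 and by 1.83. EVM0008301, of the TauD family, which in Escherichia coli releases sulfite from taurine, was at 8.89, 32.7 and 33.0 in CK and at 5.24, 4.23 and 4.34 at 10d. Its log2 fold change was -2.01 (SE 0.49, adjusted p = 0.00855 by limma) with CK-1, which was at the 10d side, and -2.60 without it.

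Of 3 lipase and esterase genes, 2 were higher at 10d with all CK libraries and 3 without CK-1. Lipases and esterases cut ester bonds of fats and waxes, and the freed fatty acids are shortened in peroxisomes and mitochondria. The class 3 lipase gene EVM0000539 was the most abundant annotated DEG, at 4697, 1702 and 1720 FPKM in CK and at 9758, 9428 and 9737 at 10d. CK-1 was 58.4% of the way from its partners to 10d, and the log2 fold change was 2.01 (SE 0.42, adjusted p = 0.00484 by limma) with it and 2.49 (SE 0.05, adjusted p = 4.39e-08 by limma) without it. The GDSL-like lipase gene EVM0003260 rose by 1.91 and by 2.22. The carboxylesterase gene EVM0004404 had 42.2, 31.0 and 27.3 FPKM in CK and 70.6, 58.8 and 66.3 at 10d. It was just below 2-fold with all CK libraries, at a log2 fold change of 0.96 (SE 0.18), and was a DEG without CK-1, at 1.14 (SE 0.10, adjusted p = 2.09e-05 by limma).

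Both measured genes of acyl-CoA metabolism rose in both fits, and so did both measured short-chain dehydrogenase genes, of which 1 has an annotated role in fatty acid breakdown. EVM0005719 encodes a peroxisomal 2,4-dienoyl-CoA reductase, needed to break down unsaturated fatty acids, and had 917, 504 and 494 FPKM in CK and 1715, 1806 and 1708 at 10d. The log2 fold change was 1.51 (SE 0.26, adjusted p = 0.00211 by limma), and 1.80 without CK-1. The acyl-CoA thioesterase gene EVM0010738, whose product frees fatty acids from coenzyme A, was at 24.3, 25.4 and 16.8 in CK and at 65.5, 74.0 and 85.2 at 10d. CK-1 did not stand apart in this gene, and the rise was 1.72 (SE 0.19, adjusted p = 0.000412 by limma) with it and 1.80 without. EVM0005089, for a MaoC-like peroxisomal hydratase, rose by 1.5 and by 1.32, and EVM0006859, annotated only as a short-chain dehydrogenase gene, by 1.33 and by 1.23.

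Transporter genes split, and they held the largest annotated rise over all 3 CK libraries. EVM0009679 belongs to the major facilitator superfamily, whose members carry sugars, drugs and other small solutes across membranes. Its FPKM was 11.9, 11.8 and 13.9 in CK and 131, 156 and 157 at 10d, so that all 3 CK libraries were alike and the mean rose 11.8-fold. The log2 fold change was 3.46 (SE 0.12, adjusted p = 9.54e-06 by limma) and 3.43 (SE 0.10) without CK-1. The sugar transporter genes EVM0007546 and EVM0001060 rose by 1.70 and 1.73, and by 2.20 and 2.06 without CK-1. EVM0007546 was among the most abundant genes named here, with 1903, 675 and 668 FPKM in CK and 2977, 3278 and 3048 at 10d.

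Of the other 2 members of this group, 1 fell with all CK libraries and both without CK-1. EVM0005770, also a major facilitator transporter gene, fell from 138, 433 and 441 FPKM in CK to 62.6, 55.5 and 48.1 at 10d. CK-1 was far below its partners, and the log2 fold change was -2.41 (SE 0.45, adjusted p = 0.00309 by limma) with it and -2.96 (SE 0.10, adjusted p = 2.50e-07 by limma) without it. The sugar transporter gene EVM0012432 was at 11.2, 37.8 and 41.9 in CK and at 7.34, 6.59 and 7.51 at 10d. It missed the threshold with all CK libraries, at a log2 fold change of -1.75 (SE 0.48, adjusted p = 0.0136 by limma), and fell without CK-1, by 2.33 on the log2 scale (SE 0.10, adjusted p = 6.90e-07 by limma).

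**Figure D4:**
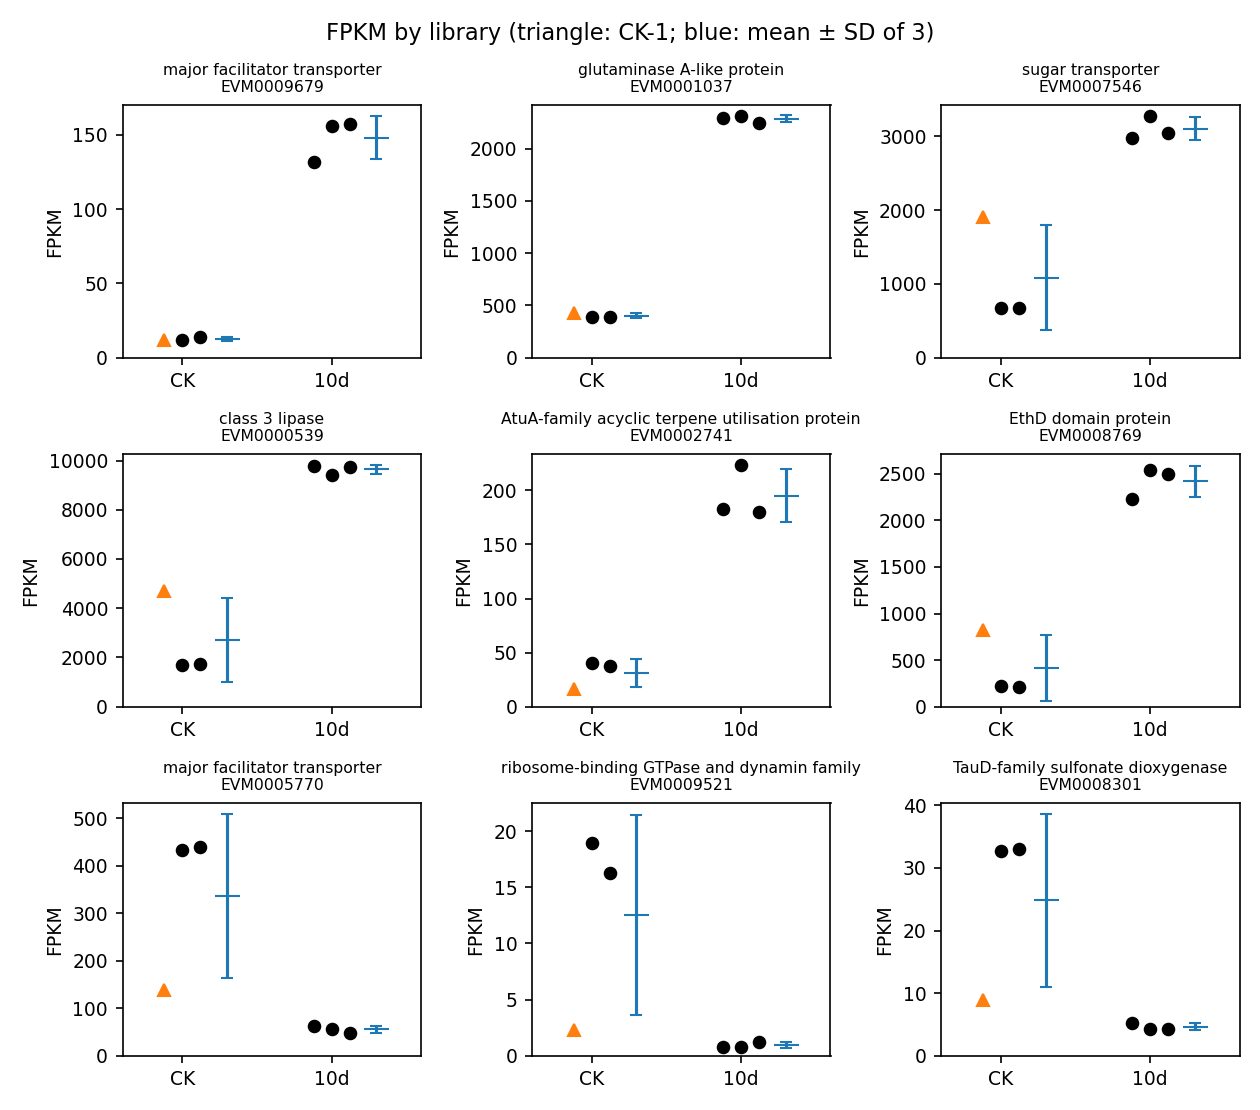
FPKM (y axis) of 9 annotated genes in each CK and 10d library, with the mean and SD of 3 libraries in blue. CK-1, an orange triangle, lies with its partners for EVM0009679 and EVM0001037, below them for EVM0002741, and toward the 10d libraries for the other 6 genes, such as EVM0000539 at 4697 against 1702 and 1720.

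The list of carbohydrate, wall and oxalate enzymes had 5 measured genes, all of which rose in both fits, although not all of them have such a role by their annotation. Of all tested genes 13.9% were higher with all CK libraries and 18.3% without CK-1, and the choice of the listed genes in part fixed their count. The largest rise with all CK libraries was in the glutaminase A-like gene EVM0001037, named after enzymes that release ammonia from glutamine. It had 432, 388 and 387 FPKM in CK and 2296, 2318 and 2250 at 10d. Its rise of 2.51 on the log2 scale (SE 0.11, adjusted p = 2.31e-05 by limma) was 2.56 without CK-1. EVM0010971, for a cerato-platanin, one of the small proteins that fungi secrete at the wall, went from 276, 114 and 104 to 761, 652 and 804. EVM0007359, of glycosyl hydrolase family 28, which holds the pectin-cutting polygalacturonases, went from 42.0, 24.0 and 25.1 to 142, 156 and 149. Their log2 fold changes were both 2.30, and 2.75 and 2.55 without CK-1. The epimerase or dehydratase gene EVM0006217 rose by 1.96 and by 2.05. The cupin gene EVM0010362, related to oxalate decarboxylases, which turn oxalate into formate, rose by 1.79 and by 2.28 from 65.7, 23.6 and 22.3 in CK to 112, 110 and 124.

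Among chaperones and proteins of protein turnover, 3 of 6 genes were higher in both fits, and the same fits called neither of the small heat shock genes. EVM0002907 encodes an F-box-like protein, a family that picks proteins for ubiquitination. Its FPKM was 412, 122 and 137 in CK and 1173, 1151 and 1233 at 10d. CK-1 was well above its partners and still far below 10d, and the log2 fold change was 2.63 (SE 0.45, adjusted p = 0.00225 by limma) with it and 3.19 (SE 0.06, adjusted p = 4.39e-08 by limma) without. The gene EVM0010749 for a RING and SWIM zinc finger protein rose by 1.70 and by 2.02, and EVM0005606, with the BAG domain of Hsp70 partners, by 1.17 and by 1.08. The Hsp20 genes EVM0006992 and EVM0001099 had log2 fold changes of 0.97 (SE 0.14) and 0.92 (SE 0.25), and the aspartyl protease gene EVM0010008 one of 0.73 (SE 0.17). With equal library medians and all CK libraries, both Hsp20 genes were called, at 1.16 and 1.11.

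Of 4 transcription factor genes, 2 were higher with all CK libraries and 3 without CK-1. The C2H2 zinc finger gene EVM0008764 was at 58.6, 37.2 and 37.3 in CK and at 145, 127 and 139 at 10d. It rose by 1.64 on the log2 scale (SE 0.19, adjusted p = 0.000534 by limma), and by 1.85 without CK-1. EVM0012109, for an RNA polymerase II transcription factor, rose by 1.10 and by 1.23. The homeobox gene EVM0011849 had 33.9, 14.2 and 16.0 FPKM in CK and 48.3, 45.4 and 46.1 at 10d, and with CK-1 its log2 fold change of 1.19 missed the threshold (SE 0.31, adjusted p = 0.0114 by limma). Without CK-1 it rose, with a value of 1.57 (SE 0.08, adjusted p = 1.45e-06 by limma). The TEA/ATTS gene EVM0006776, of a family that regulates development in fungi, stayed under 2-fold in both fits, at 0.92 (SE 0.14) and 0.82 (SE 0.11). With equal library medians and all CK libraries, all 4 transcription factor genes were called higher.

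Of the GTPase genes, both low in FPKM, 1 of 2 fell with all CK libraries and 2 without CK-1. EVM0012447, for a ribosome-binding GTPase, fell from 2.81, 8.23 and 6.71 in CK to 0.515, 0.334 and 1.06 at 10d, a log2 fold change of -2.01 (SE 0.36, adjusted p = 0.00256 by limma) and of -2.39 without CK-1. EVM0009521, which also has a domain of dynamins, GTPases that pinch membranes, had 2.33 FPKM in CK-1, 19.0 and 16.3 in CK-2 and CK-3, and 0.777, 0.753 and 1.25 at 10d. CK-1 was 75.7% of the way to 10d, and the log2 fold change missed the threshold with it, at -2.45 (SE 0.68, adjusted p = 0.0139 by limma), and passed without it, at -3.28 (SE 0.16, adjusted p = 1.21e-06 by limma).

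The heme and oxygen binding genes gave the opposite case, in which the call needed CK-1. The protoglobin gene EVM0010191, for a globin-like heme protein, was at 47.4, 76.7 and 63.1 in CK and at 136, 117 and 143 at 10d. Its log2 fold change of 1.09 (SE 0.19, adjusted p = 0.00228 by limma) became 0.91 (SE 0.11) without CK-1, below 2-fold. EVM0006142, with hemopexin repeats, a fold known from heme-binding proteins of animals, had 7.0, 10.3 and 12.5 FPKM in CK and 18.3, 26.0 and 19.4 at 10d. The change was 1.04 (SE 0.23, adjusted p = 0.00639 by limma) with CK-1 and 0.83 (SE 0.16) without it. The BTB/POZ gene EVM0010606, of a family of protein binding domains, likewise passed only with CK-1, with 2.46, 4.67 and 2.48 in CK and 8.69, 7.82 and 6.38 at 10d. Its log2 fold change went from 1.07 (SE 0.23, adjusted p = 0.00574 by limma) to 0.95 (SE 0.23).

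Among the remaining enzymes and domains, 7 of 9 genes were higher and 1 lower, and without CK-1 6 and 1. EVM0008769 carries an EthD domain, named after a protein of ether-degrading bacteria, and had 827, 221 and 206 FPKM in CK and 2225, 2536 and 2494 at 10d. Its log2 fold change was 2.84 (SE 0.53, adjusted p = 0.00295 by limma), and without CK-1, which was 55.8% of the way to 10d, it was 3.49 (SE 0.07, adjusted p = 4.39e-08 by limma). EVM0002741 belongs to the AtuA family, known in Pseudomonas for the use of acyclic terpenes, and had 16.2, 40.0 and 37.7 in CK and 183, 223 and 180 at 10d. In this gene CK-1 was the lowest library, and the change was 2.70 (SE 0.34, adjusted p = 0.000708 by limma) with it and 2.29 without it. The oxidoreductase gene EVM0012132 rose by 1.31 and by 1.32, with 36.2, 37.2 and 34.1 in CK and 96.9, 88.1 and 86.8 at 10d. The bacteriorhodopsin-like gene EVM0009931, of a family of light-sensing or light-driven membrane proteins, rose by 1.63 and by 1.37. The dihydroorotate dehydrogenase gene EVM0005918, for an enzyme of pyrimidine synthesis, had log2 fold changes of 0.74 (SE 0.14) and 0.72 (SE 0.16), and passed after quantile normalization, as did the aspartyl protease gene EVM0010008. The HD domain gene EVM0007186 fell by 1.15 and by 1.28 on the log2 scale.

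Each of the 6 libraries was left out in turn to see which calls were kept with fewer libraries. Of the 42 annotated DEGs with all CK libraries, 23 were called in every such fit, all of them higher, and 20 of these under every other alternative as well. Those 20 include EVM0010522, EVM0002057, both nitronate monooxygenase genes, EVM0000309, EVM0003260, EVM0009679, EVM0001060, EVM0007359, EVM0001037, EVM0010971, EVM0006217, EVM0008764 and EVM0002741. None of the 5 lower genes was called in every fit. The lipase gene EVM0000539, the sugar transporter gene EVM0007546, the cupin gene EVM0010362, the EthD gene EVM0008769, and EVM0007103, EVM0005840 and EVM0003124 kept their calls without CK-1 and lost them on leaving out any 1 of the other 5 libraries. Their fold changes moved little when a 10d library was left out, as in EVM0000539 with log2 values of 2.00 to 2.02 and adjusted p values of 0.0185 to 0.0196 by limma. The call of this gene was thus lost at the p threshold and not at the fold threshold. The fit without CK-1 also had 5 libraries and kept this call. The same libraries ended the calls of the lower genes EVM0005770, EVM0008301 and EVM0013062. EVM0002907 lost its call without any single 10d library, at log2 fold changes of 2.60 to 2.65, and EVM0008266 without any of these or without CK-2. The call of EVM0000788 was lost without T-10d-1 or T-10d-3, and that of EVM0005719 without T-10d-2 or T-10d-3. The call of EVM0012447 was lost without T-10d-1, T-10d-2 or CK-3, and that of EVM0007186 without T-10d-2, T-10d-3, CK-2 or CK-3. Besides CK-1, the call of EVM0010191 needed T-10d-1 and T-10d-3, and those of EVM0006142 and EVM0010606 all 10d libraries and CK-2 or CK-3, respectively. Quantile normalization ended 17 of the 42 calls, among them those of EVM0000539, EVM0007546, EVM0005719, EVM0008769, EVM0010362, EVM0005840, EVM0007103, EVM0005606, EVM0010749, EVM0012109 and all of the lower genes except EVM0005770.

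Of genes of any annotation called in both fits, the largest rises were in EVM0005970 and EVM0010427 and the largest falls in EVM0000005 and EVM0007167, which the tables used for roles do not annotate. EVM0005970 was listed at 0 in all 3 CK libraries and at 31.1, 29.8 and 28.8 FPKM at 10d. It was also listed at 0 in 2 of the 6h libraries and at 29.7 in the other, and at 0, 0 and 0.253 at 5d, so its values switched within a group. In the 1h and 1d libraries it was at 27.4 to 34.0, about as high as at 10d. EVM0010427 was listed at 0 in CK and at 18.8, 20.0 and 15.6 at 10d, and also at 0 in 1 library each of 6h and 1d. It had 24.6 to 25.4 at 1h and 17.5 to 23.7 at 5d, so the values of these genes were not particular to 10d. No fold is given for these genes. EVM0000005 fell from 230, 212 and 209 to 23.6, 14 and 18.5, a log2 fold change of -3.49 (SE 0.18, adjusted p = 3.72e-05 by limma), and -3.45 without CK-1. EVM0007167 fell from 259, 365 and 388 to 30.0, 33.1 and 28.4, with a log2 fold change of -3.41 and of -3.58 without CK-1. Both were already low before 10d. At 5d EVM0000005 had 22.9, 30.3 and 22.3, overlapping with 10d. EVM0007167 had 37.0 to 47.6 at 1d and 58.6, 32.7 and 59.4 at 5d, of which only the 32.7, in T-5d-2, overlapped with 10d. The most abundant gene of the table, EVM0003720, named after its values were seen, had 17391, 10264 and 10218 FPKM in CK and 22558, 22285 and 21948 at 10d. It was not a DEG with CK-1, at a log2 fold change of 0.87 (adjusted p = 0.0502 by limma), and was one without it, at 1.12.

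To see where 10d differed from the rest of the treated series, it was compared with the mean of the 1h, 6h, 1d and 5d group means in a fit of all 18 libraries. This contrast does not use CK but shares the 10d libraries with the other. It called 257 of 1093 genes (23.5%), 84 higher (7.69%) and 173 lower (15.8%). The split was 121 and 80 after quantile normalization and 153 and 84 with equal library medians, so here the scaling turned the majority to higher genes. Leaving out the 4 libraries that the study left out gave 97 and 203. Of the annotated genes 33 were higher and 2 lower, 29 of the former also being higher against CK. Many of the annotated genes had been picked by the study as members of a module that followed the time of PSI in these libraries, so that these counts were in part fixed by the choice and nothing is read from them. Over all tested genes, every 10d library was above all 15 other libraries in 85 genes (7.78%) and below them in 168 (15.4%).

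The annotated genes with the largest differences from the earlier times were those for the AtuA family, the F-box-like protein and the EthD domain. EVM0002907 ranged from 119 to 855 FPKM over the 12 earlier libraries with a median of 207, against at least 1151 at 10d, and the log2 difference was 2.26 (SE 0.37, adjusted p = 7.98e-05 by limma). EVM0008769 ranged from 184 to 1211 with a median of 496, and the difference was 2.10 (SE 0.35, adjusted p = 8.74e-05 by limma). The AtuA gene EVM0002741 was 2.53 higher (SE 0.45, adjusted p = 0.000171 by limma), with a median of 23.9 at the earlier times. Its 5d libraries had 198, 24.1 and 189, the low one being T-5d-2, which the study left out, so the others overlapped with 10d. The lipase gene EVM0000539 ranged from 854 to 5486, below all 10d libraries, a difference of 1.98 (SE 0.39, adjusted p = 0.000434 by limma). EVM0010522, with 112 to 303 before and at least 602 at 10d, was 1.58 higher (SE 0.15, adjusted p = 6.49e-07 by limma).

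The catalase gene EVM0011998, under 2-fold against CK, was 1.19 higher than at the earlier times (SE 0.15, adjusted p = 7.68e-06 by limma), with a median of 10.8 FPKM there. Its 5d libraries, at 23.5, 40.6 and 22.9, lay on both sides of the 28.1 to 31.2 of 10d. The high one was T-5d-2, which the study left out, and the other 5d libraries were below all 10d libraries. The 1h, 6h and 1d libraries were lower still, at 6.82 to 14.2. The carboxylesterase gene EVM0004404, the aspartyl protease gene EVM0010008 and the homeobox gene EVM0011849 also passed in this contrast and not against all 3 CK libraries, and these contrasts were not tested against each other. Of the 37 genes higher than in CK, 8 did not pass here. One of them, EVM0008017, had 324 to 559 FPKM at 1h and 525 to 547 at 6h, above its 198 to 206 at 10d, and its log2 difference was -0.39 (SE 0.14, adjusted p = 0.0255 by limma). Another, EVM0007103, had 1358, 497 and 1308 at 5d, the 497 in T-5d-2, and 468 to 544 at 10d. Among the annotated genes the highest group mean was at 10d in 35 and at 5d in 6. The choice of these genes in part fixed this count and the share over all tested genes was not computed, so nothing is read from it. The TEA/ATTS gene EVM0006776 had its highest values at 1h, 163 to 325, and was at 48.8 to 62.3 at 10d, a log2 difference of -0.93 (SE 0.32, adjusted p = 0.0175 by limma). The protoglobin gene EVM0010191 was at 116 to 236 at the earlier times and at 117 to 143 at 10d, and its log2 difference was -0.14 (SE 0.15). The hemopexin repeat gene EVM0006142 spread from 5.32 to 151 at the earlier times, and its log2 difference from 10d was -1.01 (SE 0.79). Its low values were 5.32 in T-5d-2, 10.1 in T-1d-3 and 15.4 in T-1h-3, below the 18.3 to 26.0 of 10d. The study left out each of these low libraries. All other earlier libraries, at 35.3 to 151, lay above every 10d library.

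EVM0005770 had 317 to 475 FPKM at 1h and 332 to 336 at 6h, and was 2.03 lower at 10d than at the earlier times (SE 0.46, adjusted p = 0.00119 by limma). Its values were 266, 230 and 90.7 at 1d and 205, 35.0 and 198 at 5d. The 35.0 was in T-5d-2, which the study left out, and lay below all 10d libraries, at 48.1 to 62.6. EVM0009521 was 1.38 lower (SE 0.39, adjusted p = 0.00592 by limma), with 1.35 to 7.49 at the earlier times. EVM0013062, EVM0008301, EVM0012447, EVM0012432 and EVM0009521 itself were already below CK-2 and CK-3 in every earlier library. Only EVM0012447 was also below CK-1 in all of them, with 2.81 FPKM in CK-1. For the other genes CK-1 lay within the range of the earlier libraries, as in EVM0009521 at 2.33, so a fall below all CK libraries is not shown there. EVM0012447, with 0.484 to 1.97 at the earlier times, had a log2 difference from 10d of -0.37 (SE 0.22). For EVM0013062 it was -0.42 (SE 0.22) and for EVM0008301 -0.86 (SE 0.30), neither past the threshold.

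**Figure D5:**
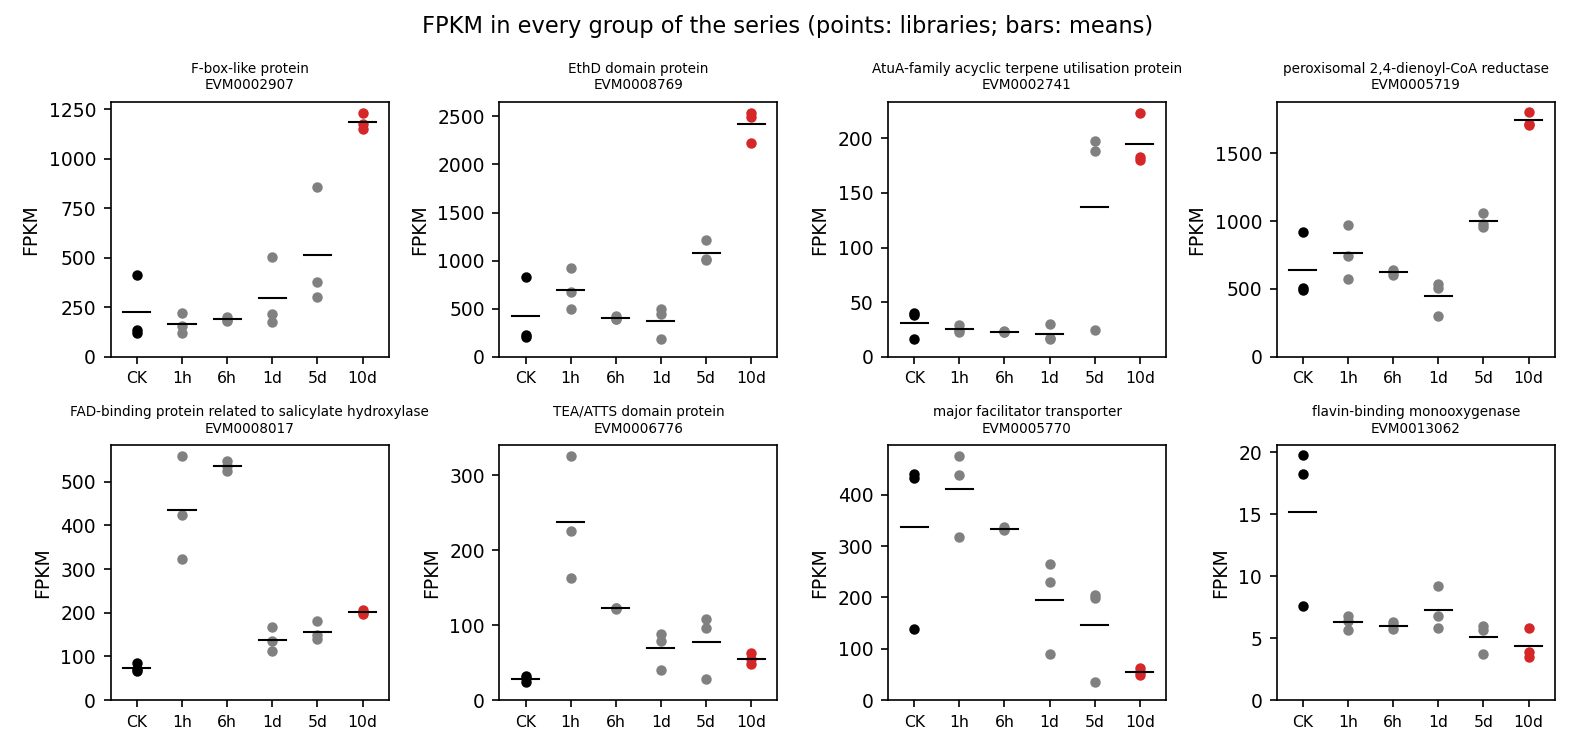
FPKM (y axis) of 8 annotated genes in all 18 libraries by group, with group means as bars, CK in black, earlier times in grey and 10d in red. EVM0002907, EVM0008769 and EVM0005719 have all 10d libraries above all others, while EVM0008017 and EVM0006776 have their highest values at 1h or 6h.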

How the data were processed

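RNA-seq libraries of S. latifolia mycelium were compared, 3 of 10d and 3 of CK, and 12 of the earlier times for 1 contrast. The authors computed the deposited FPKM values, which were not altered. The study's methods give mapping with HISAT2 and assembly with StringTie, and Bowtie 0.12.2 is listed as well in the submitters' processing notes. No genome build is given in the sources used here. The unit was taken from equal values in FPKM columns of the study's tables. Read counts were not used here, so the counting precision of a gene is unknown and libraries alone set the errors.

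Values entered limma 3.58.1 (R 4.3.3) as log2(FPKM + 1), with a mean-variance trend, no further scaling and Benjamini-Hochberg adjustment over the 1093 tested genes. The comparison with CK used its own 6 libraries, or 5 without CK-1. Fits were tested on simulated data. Simulated 2-fold changes, which lie at the threshold, were called in 38% of cases with all CK libraries and in 48% without CK-1. For 3-fold changes these shares were 86% and 94%, and 0.11% of unchanged genes were called in each fit. Tables and figures came from pandas 2.3.3, numpy 2.4.6 and matplotlib 3.10.9 under Python 3.11.15.

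Named were all annotated genes that were measured, with full statistics for the largest change of each role and for calls that differ with CK-1. The 2 largest rises and the 2 largest falls of any annotation were added, and the 2 most abundant DEGs of each direction if annotated. Members and lists were chosen with earlier results of these data known. Neither listed cytochrome P450 gene was measured, and 0 identifiers matched the reference gene table. Alternatives were other scalings, a pseudocount of 0.1, no filter, other thresholds, no trend, other samples in the fit, single libraries omitted, and a block for the replicate number.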

Additional observations from a re-analysis of the deposited data

How the results depend on the processing

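Only 1100 genes and no counts were at hand, so neither counting error nor the rest of the transcriptome entered these results. With 3 libraries a group and CK-1 apart from its partners, many SEs were larger with CK-1 than without it. At 1.5-fold, 288 genes were higher than in CK, 333 were higher than in CK-2 and CK-3, and 195 higher and 358 lower than at the earlier times. Equal library medians gave 237 higher than in CK, and 153 higher and 84 lower than at the earlier times. Quantile normalization gave 156 lower than in CK, 229 lower than in CK-2 and CK-3, and 80 lower than at the earlier times. By construction, quantile normalization gives all libraries one distribution and the other scaling one median. All other counts stayed within 1.5 times of those reported. Leaving out single libraries gave 115 to 200 higher and 227 to 382 lower than in CK, 191 to 201 and 362 to 382 without CK-1, and 78 to 84 and 149 to 159 against the earlier times. For the named genes, 720 of the values under an alternative kept their side of the threshold, 104 lost the call, 31 gained it and none reversed.

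The same replicate numbers occur in CK and 10d. Across genes, the deviations of same-numbered libraries from their group means had an r of 0.00, 0.05 and -0.05. CK-1 had its highest r with T-10d-3, at 0.04, and CK-2 with T-10d-2. With 3 libraries a group, these values cannot tell whether same-numbered libraries shared a batch or a set of flasks. With the number as a replicate block, 152 genes were higher and 303 lower than in CK, 201 and 383 without CK-1, and 83 and 167 against the earlier times.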
